A study of Mus musculus with 23 samples.

Results

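The NF-kB genes described here are the DNA-binding subunits Nfkb1, Nfkb2, Rel, Rela and Relb, the nuclear IkB proteins Bcl3, Nfkbid and Nfkbiz, and the feedback inhibitors Nfkbia and Tnfaip3. They were chosen by name, and each was read at every probe set of the array that its annotation assigns to that gene alone. This gave 17 probe sets for 9 of the 10 genes, among 45037 probe sets and 18193 genes in all. No probe set named Nfkb1 alone, and it was not analysed here. Nfkbia had 5 probe sets, Nfkbiz 3, Nfkb2 and Tnfaip3 2 each, and the other genes 1 each.

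NF-kB factors are dimers of Rel-family proteins that IkB proteins hold in the cytoplasm until a receptor activates the IKK kinase complex, which marks the inhibitor for destruction. The freed dimers enter the nucleus and induce, among many genes, their own inhibitors, so that transcripts such as Nfkbia and Tnfaip3 serve as readouts of recent pathway activity. In T cells the pathway is switched on by the antigen receptor with CD28 and by receptors of the tumour necrosis factor family, and Rel is needed for the development of Foxp3+ regulatory T cells. Nfkb2 and Relb form the non-canonical branch, which is controlled by processing of the Nfkb2 precursor.

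Total RNA of mouse CD4+ T cells, sorted by CD25 (the interleukin-2 receptor alpha chain) and CD49f (the integrin alpha 6 chain), was measured on 23 Affymetrix arrays. The groups were CD25-CD49f- (n = 7), CD25-CD49f+ (n = 7), CD25+CD49f- (n = 5) and CD25+CD49f+ (n = 4) cells, with all samples labelled female and numbered as biological replicates. Strain, genotype, age and treatment are not given in the sources used here, and whether 1 animal or several gave each sample is not stated either, so each p-value reflects only the spread among these samples. All levels below are log2 expression values made by the authors, all differences are log2 differences with their standard errors, and a call is a limma adjusted p under 0.05 over all 45037 probe sets. Precision is limited by the number of arrays, and only messenger RNA was measured, not protein or its location.

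The sort marker and cell identity transcripts were read before the NF-kB genes. Il2ra, which codes CD25, had mean levels of 5.42 in CD25-CD49f- cells, 6.84 in CD25-CD49f+ cells, 9.69 in CD25+CD49f- cells and 9.60 when both were present. Foxp3, the factor that defines regulatory T cells, had means of 4.74, 8.25, 9.79 and 9.85. Itga6, which codes CD49f, had means of 9.79, 9.36, 9.64 and 9.81, lower with CD49f in CD25- cells and higher by less than the SD of 0.23 of CD25+CD49f- cells in CD25+ cells. T cell markers, 11 of 12 measured, had a mean level between 10.34 and 11.22 on every array. With CD25 in CD49f- cells 4 of them were called lower and 0 higher, where 13.1% of all genes were called in either direction. With CD25 in CD49f+ cells 2 were called lower and 0 higher (5.02% of all genes). A set of 4 arrays correlated less with their own group than the rest (median r of at most 0.9815, against at least 0.989): CD25-CD49f- replicates 1 and 7, CD25-CD49f+ replicate 1 and CD25+CD49f- replicate 5. Without them 2 T cell markers were higher and 2 lower with CD25 in CD49f- cells (17.5% of all genes called in either direction). With CD25 in CD49f+ cells 1 was then higher and 2 lower (11%). Y-linked transcripts were present on 11 arrays, Xist on 13 and both on 1, CD25+CD49f- replicate 5, although all samples were labelled female. Results are therefore given with and without the 4 arrays and, where calls rest on it, within the arrays with or without Y-linked transcripts.

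The promoters of the member genes are shown first, because several of these genes are textbook targets of the factor they encode or restrain. RefSeq windows (mouse build GRCm38.p6) of 300 bases, from 250 before to 50 after an annotated start, were found for 7 of the 9 measured genes, 12 windows in all, and not for Relb or Nfkbiz. For each of 6 genes 1 window is shown. Capitals mark matches to the NF-kB consensus on either strand, and overlapping matches run together.
Tnfaip3 promoter, chr10:19015361-19015660, minus strand: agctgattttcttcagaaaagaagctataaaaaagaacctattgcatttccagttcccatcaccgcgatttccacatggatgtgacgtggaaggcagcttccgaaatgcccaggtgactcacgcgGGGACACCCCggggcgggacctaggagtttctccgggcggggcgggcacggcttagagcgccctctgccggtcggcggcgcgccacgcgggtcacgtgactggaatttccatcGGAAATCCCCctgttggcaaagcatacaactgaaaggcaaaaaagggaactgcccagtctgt
Nfkbia promoter, chr12:55492598-55492897, minus strand: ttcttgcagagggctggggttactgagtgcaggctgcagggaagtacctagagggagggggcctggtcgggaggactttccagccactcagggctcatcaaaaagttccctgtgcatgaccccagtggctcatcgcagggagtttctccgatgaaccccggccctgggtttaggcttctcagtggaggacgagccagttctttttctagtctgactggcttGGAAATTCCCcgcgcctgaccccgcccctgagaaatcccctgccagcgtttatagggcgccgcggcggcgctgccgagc
Rel promoter, chr11:23770920-23771219, minus strand: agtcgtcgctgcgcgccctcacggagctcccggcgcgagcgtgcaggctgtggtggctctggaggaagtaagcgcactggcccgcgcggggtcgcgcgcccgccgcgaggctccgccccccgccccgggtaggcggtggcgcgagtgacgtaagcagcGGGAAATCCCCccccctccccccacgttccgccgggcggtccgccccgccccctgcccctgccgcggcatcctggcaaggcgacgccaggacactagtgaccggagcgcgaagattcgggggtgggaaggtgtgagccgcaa
Nfkb2 promoter, chr19:46304487-46304786, plus strand: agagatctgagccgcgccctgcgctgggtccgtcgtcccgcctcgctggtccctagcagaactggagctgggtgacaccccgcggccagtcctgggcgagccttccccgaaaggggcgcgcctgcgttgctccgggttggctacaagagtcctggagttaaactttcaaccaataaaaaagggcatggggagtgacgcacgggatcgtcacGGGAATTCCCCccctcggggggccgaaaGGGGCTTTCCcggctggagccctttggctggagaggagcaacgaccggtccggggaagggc
Bcl3 promoter, chr7:19822706-19823005, minus strand: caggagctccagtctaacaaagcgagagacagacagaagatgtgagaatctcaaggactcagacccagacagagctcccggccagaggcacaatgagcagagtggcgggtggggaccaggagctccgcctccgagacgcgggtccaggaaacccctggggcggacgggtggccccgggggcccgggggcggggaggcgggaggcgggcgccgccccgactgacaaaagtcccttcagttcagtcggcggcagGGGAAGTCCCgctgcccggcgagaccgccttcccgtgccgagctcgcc
Rela promoter, chr19:5637291-5637590, plus strand: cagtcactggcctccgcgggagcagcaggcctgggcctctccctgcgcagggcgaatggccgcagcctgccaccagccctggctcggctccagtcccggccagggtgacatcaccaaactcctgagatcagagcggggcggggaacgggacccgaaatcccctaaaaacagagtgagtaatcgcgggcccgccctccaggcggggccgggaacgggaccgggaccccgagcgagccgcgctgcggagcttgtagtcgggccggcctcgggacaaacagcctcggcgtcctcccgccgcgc
Positions count from the annotated start of the gene. Nfkbia held 1 match at -29, and Tnfaip3 held 2, at -125 and -12. Rel held 2 overlapping matches at -92 and -91. Nfkb2 held overlapping matches at -39 and -38 and another at -11, Bcl3 held 1 at +3, and the Rela window held none. The windows not shown held matches at -236 and +11 in one and at -225 in another for Nfkb2, none for Tnfaip3, and, for Nfkbid, 2 matches (-226 and -181) in 1 of 3 windows. The consensus was found in 8 of the 12 member windows, against 4.51% of all 32851 promoter windows of this length. Overlapping windows of Nfkb2 share 1 of these sites. By gene, 6 of the 7 held it in at least 1 window, against 5.14% of all 27025 genes with a window. A match describes the letters of the window and does not show binding.

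The member genes fell into 3 patterns across the groups. Tnfaip3, Nfkbia, Rel, Nfkbiz and Nfkbid were lowest in CD25-CD49f- cells and higher in each of the other groups, whichever marker was present. Bcl3 and 1 of the 2 Nfkb2 probe sets were higher in CD25+CD49f- cells than in CD25-CD49f- cells but were not called by CD49f. Rela and Relb were called in no comparison over all arrays. In CD25+ cells no member gene was called by CD49f.

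**Figure D1:**
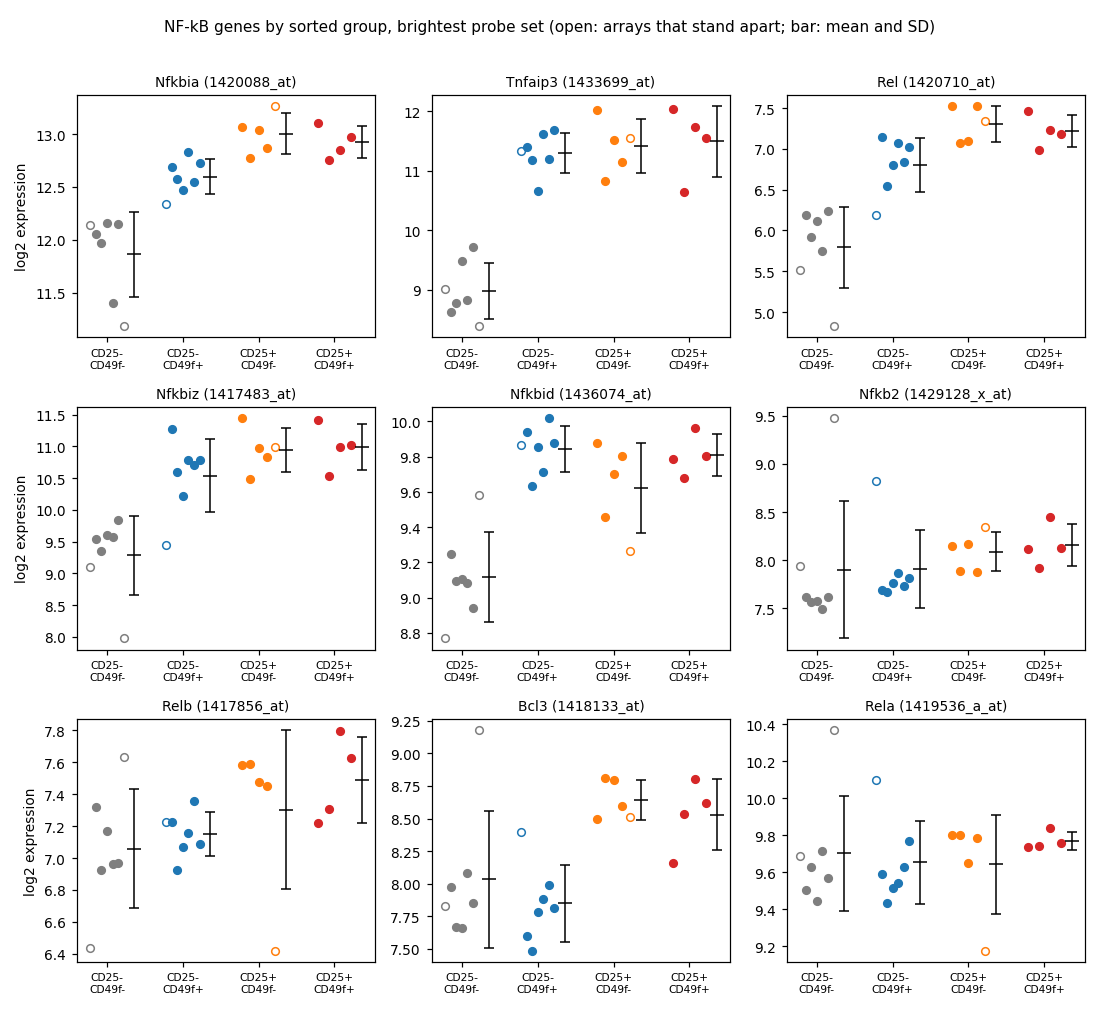
Log2 expression of each measured NF-kB gene at its brightest probe set on the 23 arrays, by sorted group, with the group mean and SD as bars and the 4 arrays that stood apart as open points. Tnfaip3 lies between 8.39 and 9.73 in CD25-CD49f- cells and at 10.64 or above on every other array, while the Rela groups overlap.

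Tnfaip3 codes a ubiquitin-editing enzyme that shuts off signalling between receptors and the IKK complex, and it showed the largest difference of the 9 genes. In CD25-CD49f- cells its level ran from 8.39 through a median of 8.83 to 9.73. In CD25-CD49f+ cells it ran from 10.66 through 11.33 to 11.69. The 7 arrays of one group lay wholly below the 7 of the other. CD25+CD49f- cells gave 12.02, 10.83, 11.52, 11.15 and 11.55, and CD25+CD49f+ cells gave 12.04, 10.64, 11.73 and 11.55. These 3 groups overlapped one another and none reached down to CD25-CD49f- cells. Against CD25-CD49f- cells, Tnfaip3 was higher by 2.32 ± 0.22 in CD25-CD49f+ cells (4.99-fold, adjusted p = 3.95e-08) and by 2.44 ± 0.24 in CD25+CD49f- cells (5.41-fold, adjusted p = 6.93e-08). Between the CD25+ groups the difference was 0.08 ± 0.28 (adjusted p = 1). The dimmer Tnfaip3 probe set, with a mean of 5.86 in CD25-CD49f- cells, gave 1.62 ± 0.30 for CD49f in CD25- cells (adjusted p = 0.0005) and 1.13 ± 0.33 for CD25 in CD49f- cells (adjusted p = 0.027).

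Nfkbia codes IkB alpha, the inhibitor that NF-kB resynthesises after each round of activation. Its brightest probe set ran from 11.18 through 12.05 to 12.16 in CD25-CD49f- cells and from 12.34 through 12.58 to 12.83 in CD25-CD49f+ cells. CD25+CD49f- cells gave 13.07, 12.77, 13.04, 12.87 and 13.27, and CD25+CD49f+ cells gave 13.11, 12.76, 12.85 and 12.97. Every array of the other 3 groups lay above the highest CD25-CD49f- array. The difference was 0.73 ± 0.14 (1.66-fold, adjusted p = 0.000469) for CD49f in CD25- cells and 1.14 ± 0.15 (2.21-fold, adjusted p = 4.36e-06) for CD25 in CD49f- cells. All 5 Nfkbia probe sets were called in both comparisons, with differences of 0.65 to 1.07 and of 1.03 to 1.61, the dimmest of them at a mean of 6.42 in CD25-CD49f- cells. By CD49f in CD25+ cells the brightest gave -0.08 ± 0.17 (adjusted p = 1).

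Nfkbid and Nfkbiz code atypical, nuclear IkB proteins that act on chromatin, and Nfkbid is known for supporting Foxp3 induction. Nfkbid ran from 8.77 through 9.10 to 9.58 in CD25-CD49f- cells and from 9.63 through 9.87 to 10.02 in CD25-CD49f+ cells, with no overlap. The CD25+CD49f- arrays gave 9.88, 9.46, 9.70, 9.80 and 9.27, which overlapped the CD25-CD49f- range, and the CD25+CD49f+ arrays gave 9.78, 9.68, 9.97 and 9.80, which did not. Nfkbid was the one gene of the 5 whose highest group mean was that of CD25-CD49f+ cells, and CD25+CD49f+ cells differed from it by -0.04 ± 0.13, which is within the spread. The difference was 0.73 ± 0.11 (adjusted p = 3.04e-05) for CD49f in CD25- cells and 0.50 ± 0.12 (adjusted p = 0.00472) for CD25 in CD49f- cells.

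The brightest Nfkbiz probe set ran from 7.98 through 9.54 to 9.84 in CD25-CD49f- cells and from 9.45 through 10.7 to 11.27 in CD25-CD49f+ cells. The lowest CD25-CD49f+ array, replicate 1, fell inside the CD25-CD49f- range. The CD25+CD49f- arrays gave 11.45, 10.49, 10.97, 10.83 and 10.99, and the CD25+CD49f+ arrays gave 11.41, 10.53, 10.99 and 11.03, all above it. Nfkbiz was higher by 1.26 ± 0.25 (2.39-fold, adjusted p = 0.00128) with CD49f in CD25- cells and by 1.66 ± 0.28 (3.16-fold, adjusted p = 0.000144) with CD25 in CD49f- cells. The other 2 Nfkbiz probe sets were called in both comparisons as well.

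Rel codes c-Rel, an activating subunit found mainly in lymphoid cells, and was the only activating subunit among the genes called over all arrays. Its level ran from 4.83 through 5.92 to 6.24 in CD25-CD49f- cells and from 6.19 through 6.84 to 7.14 in CD25-CD49f+ cells. The CD25-CD49f- levels all lie below 6.50, the highest Xist level on arrays without Xist, so they are in a range that a transcript that is not present also reached, and differences from them may be understated. CD25+CD49f- cells gave 7.52, 7.07, 7.10, 7.52 and 7.34, and CD25+CD49f+ cells gave 7.46, 6.99, 7.23 and 7.18. These 9 arrays all lay above the CD25-CD49f- range, while the CD25- groups overlapped at 1 end. With that limit, Rel was higher by 1.01 ± 0.18 (adjusted p = 0.000295) with CD49f in CD25- cells and by 1.52 ± 0.20 (adjusted p = 3.96e-06) with CD25 in CD49f- cells.

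Rela codes the activating subunit found in most cell types, whose activity is set mainly by its release from IkB proteins. Its level ran from 9.45 through 9.63 to 10.37 in CD25-CD49f- cells and from 9.43 through 9.59 to 10.1 in CD25-CD49f+ cells. CD25+CD49f- cells gave 9.80, 9.80, 9.65, 9.78 and 9.18, and CD25+CD49f+ cells gave 9.74, 9.74, 9.84 and 9.76. All 4 groups overlapped. The differences by CD49f were -0.05 ± 0.13 in CD25- cells and 0.13 ± 0.16 in CD25+ cells, and none of the comparisons was called. Rela without the 4 arrays gave 0.19 for CD25 in CD49f- cells (adjusted p = 0.108).

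Bcl3 and the non-canonical subunits were called, where they were, by CD25 and not by CD49f. Bcl3 codes a nuclear IkB protein that joins Nfkb1 and Nfkb2 homodimers on DNA. Its level ran from 7.66 through 7.85 to 9.18 in CD25-CD49f- cells and from 7.49 through 7.82 to 8.40 in CD25-CD49f+ cells. The CD25+CD49f- arrays gave 8.50, 8.81, 8.80, 8.60 and 8.51, and the CD25+CD49f+ arrays gave 8.16, 8.54, 8.80 and 8.62. The CD25+CD49f- arrays all exceeded the CD25-CD49f+ arrays, whereas CD25-CD49f- replicate 7, at 9.18, lay above every other array of the series. Bcl3 was higher by 0.61 ± 0.20 with CD25 in CD49f- cells (1.53-fold, adjusted p = 0.0494), a call that held in only 3 of the 23 fits leaving out 1 array. Without the 4 arrays it was higher by 0.83 ± 0.12 (adjusted p = 4.86e-05) with CD25 in CD49f- cells and by 0.77 ± 0.12 (adjusted p = 0.000168) with CD25 in CD49f+ cells. In CD49f+ cells over all arrays, that difference was 0.68 ± 0.21 and was not called (adjusted p = 0.0917). It was called when CD25-CD49f- replicate 7 (adjusted p = 0.00308) or CD25-CD49f+ replicate 1 (adjusted p = 0.0357) was left out. The first of these arrays is in neither group compared, and without it the difference stayed at 0.68. It enters through the spread that the fit shares over the 4 groups. CD49f gave -0.18 ± 0.18 in CD25- cells and -0.12 ± 0.22 in CD25+ cells.

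Nfkb2 codes the precursor of the non-canonical subunit, and its 2 probe sets differed. The dimmer ran from 6.81 through 7.0 to 7.64 in CD25-CD49f- cells and from 7.12 through 7.15 to 7.48 in CD25-CD49f+ cells. CD25+CD49f- cells gave 7.79, 8.02, 8.05, 7.73 and 7.76, and CD25+CD49f+ cells gave 7.36, 7.67, 7.79 and 7.57. The CD25+CD49f- arrays lay above both CD25- groups, by 0.80 ± 0.12 over CD25-CD49f- cells (1.75-fold, adjusted p = 1.92e-05). The brighter probe set ran from 7.49 through 7.61 to 9.48 in CD25-CD49f- cells and from 7.67 through 7.77 to 8.82 in CD25-CD49f+ cells. Its CD25+CD49f- arrays gave 8.15, 7.89, 8.17, 7.88 and 8.35, and its CD25+CD49f+ arrays 8.12, 7.92, 8.45 and 8.13, so that all groups overlapped and the difference by CD25 in CD49f- cells was 0.19 ± 0.26 (adjusted p = 0.791). On the other 19 arrays that difference was 0.45 ± 0.09 (adjusted p = 0.00132), and in CD49f+ cells it was 0.40 ± 0.09 (adjusted p = 0.00476). The highest CD25- values of the brighter probe set, 9.48 and 8.82, came from CD25-CD49f- replicate 7 and CD25-CD49f+ replicate 1, which are among those 4.

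Relb codes the transcriptional partner of Nfkb2 in the non-canonical branch. Its level ran from 6.43 through 6.97 to 7.63 in CD25-CD49f- cells and from 6.93 through 7.15 to 7.36 in CD25-CD49f+ cells. The CD25+CD49f- arrays gave 7.58, 7.59, 7.48, 7.45 and 6.42, the last being replicate 5, and the CD25+CD49f+ arrays gave 7.22, 7.31, 7.80 and 7.63. Over all arrays no difference was called, and CD25 in CD49f- cells gave 0.24 ± 0.18 (adjusted p = 0.545). Without the 4 arrays it gave 0.46 ± 0.11 (adjusted p = 0.00705), and CD25 in CD49f+ cells gave 0.35 ± 0.11 (adjusted p = 0.0492). CD49f in CD25- cells gave 0.07 (adjusted p = 0.779) on those 19 arrays.

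**Figure D2:**
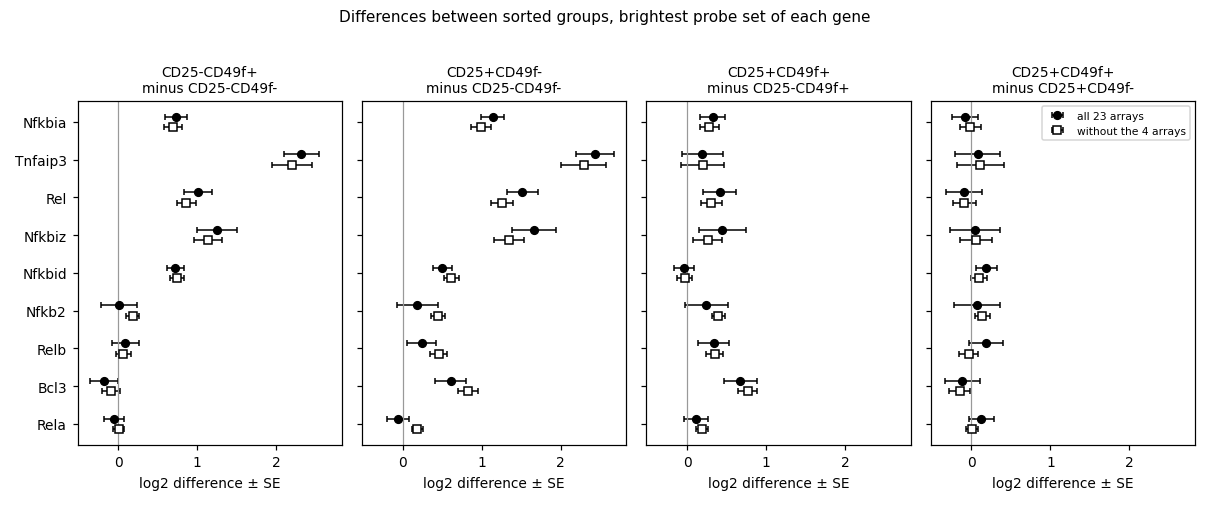
Log2 difference with its standard error for the brightest probe set of each NF-kB gene in 4 comparisons of the sorted groups. Filled circles are the fit on all arrays, and open squares are the fit without the 4 arrays that stood apart. Over all arrays Tnfaip3 is farthest to the right, at 2.32 for CD49f in CD25- cells and 2.44 for CD25 in CD49f- cells. No difference by CD49f in CD25+ cells was called in either fit.

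Counted over the genes, CD25-CD49f+ cells differed from CD25-CD49f- cells in 5 of 9 members, all higher, while 7.5% of the 18193 genes were called higher. Without the 4 arrays the count was again 5 (9.51% of all genes called higher). Over probe sets, 12 of the 17 were higher, against 5.45% of all 45037. The median difference of the members was 0.73, against -0.02 for all genes. CD25+CD49f- cells differed from CD25-CD49f- cells in 6 of 9, all higher (8.78% of all genes were called higher), and 14 of the 17 probe sets were higher (6.07% of all probe sets). CD25+CD49f+ cells differed from CD25-CD49f- cells in 5 of 9, all higher (7.15% of all genes), and in 8 of 9 without the 4 arrays (10.2%), all but Rela. These 3 comparisons share the CD25-CD49f- arrays, so their likeness is no result of its own. CD25+CD49f- cells exceeded CD25-CD49f+ cells in 1 gene, Bcl3, by 0.79 ± 0.20 (adjusted p = 0.0139; 4.6% of all genes were called higher). Of the 17 probe sets 3 were called there (3.02% of all probe sets higher), with the dimmer Nfkb2 at 0.66 ± 0.12 (adjusted p = 0.000471) and 1 Nfkbia at 0.54 ± 0.15 (adjusted p = 0.0402). Relb joined Bcl3 when the 4 arrays were left out, at 0.39 (adjusted p = 0.0255), which made 2 of 9 (7.51% of all genes higher).

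By CD25 within CD49f+ cells 0 of 9 members were called with limma, 1 had an unadjusted p under 0.05, and 5.02% of all genes were called. Without the 4 arrays 3 of 9 were called higher there, Bcl3, Nfkb2 and Relb (4.96% of all genes higher), and 8 of 9 were higher with CD25 in CD49f- cells, all but Rela (11.3%).  By CD49f within CD25+ cells 0 of 9 were called, 0 had an unadjusted p under 0.05, and 1.66% of all genes were called. Differences there ran from -0.12 for Bcl3 to 0.19 for Nfkbid, and the count was also 0 without the 4 arrays (2.63% of all genes).

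The difference by CD49f was compared between the CD25 gates with the interaction term, the CD49f difference in CD25+ cells minus that in CD25- cells. It was -2.24 ± 0.36 for Tnfaip3 (adjusted p = 0.000249), -1.11 ± 0.29 for Rel (adjusted p = 0.0295) and -0.82 ± 0.22 for Nfkbia (adjusted p = 0.035). These 3 of 9 genes were called lower, against 3.79% of all genes. The dimmer Tnfaip3 probe set gave -1.09 and was not called (adjusted p = 0.356), and 3 of the 5 Nfkbia probe sets were called. Without the 4 arrays that Tnfaip3 probe set gave -1.52 and was called (adjusted p = 0.0291), as were all Nfkbia probe sets but the dimmest. Nfkbiz, at -1.21 (adjusted p = 0.14), and Nfkbid, at -0.54 (adjusted p = 0.11), were not called. Both were called without the 4 arrays, at -1.08 (adjusted p = 0.0147) and -0.65 (adjusted p = 0.00289), which made 5 of 9 (6.24% of all genes lower). The Tnfaip3 term was called in all 23 fits that left out 1 array, that of Rel in 15 and that of Nfkbia in 13. Bcl3, Relb, Nfkb2 and Rela gave 0.07, 0.09, 0.06 and 0.17. The dimmer Nfkb2 probe set gave -0.42 (adjusted p = 0.28), and -0.50 without the 4 arrays, where it was called (adjusted p = 0.0207).

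**Figure D3:**
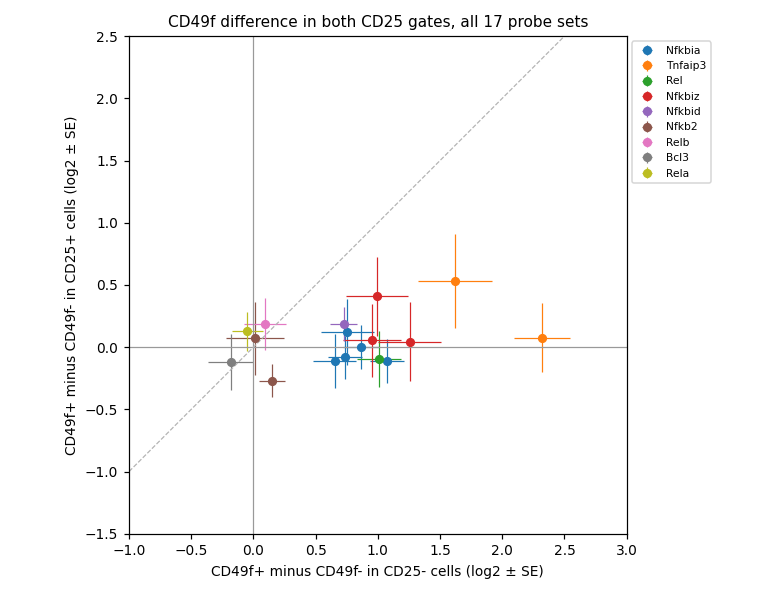
Difference by CD49f in CD25+ cells (vertical) against that in CD25- cells (horizontal), log2 with standard errors, for the 17 probe sets coloured by gene. The Tnfaip3 point at 2.32 on the horizontal axis lies at 0.08 on the vertical axis, and no probe set is called on the vertical axis.

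Samples with and without Y-linked transcripts were set against each other for the CD49f difference in CD25- cells. Tnfaip3 was higher by 2.11 ± 0.31 on arrays without them (adjusted p = 0.00127) and by 2.59 ± 0.29 on arrays with them (adjusted p = 0.000449). Rel gave 0.85 and 1.23, Nfkbia 0.60 and 0.91, Nfkbid 0.81 and 0.61 and Nfkbiz 0.97 and 1.64, each higher in both. With fewer arrays, 3 genes were called without Y-linked transcripts (Tnfaip3, Rel and Nfkbid) and 2 with them (Tnfaip3 and Nfkbiz). Of all genes, 6.29% and 4.49% were called there in either direction, against 12.4% on all arrays. Tnfaip3 gave an interaction of -2.20 on arrays without them and -2.36 on arrays with them, called in the latter (adjusted p = 0.0354). Relb gave 0.71 for CD25 in CD49f- cells on arrays without them (adjusted p = 0.037) and -0.19 on arrays with them. The arrays with them include CD25+CD49f- replicate 5, which also carried Xist and also enters their Tnfaip3 interaction.

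In the order of group levels, only the lowest step was called for the 5 genes of the first pattern. For Tnfaip3, Nfkbia, Rel and Nfkbiz that step separated CD25-CD49f- from CD25-CD49f+ cells, and for Nfkbid it separated CD25-CD49f- from CD25+CD49f- cells. No step between neighbouring groups was called for Nfkb2, Rela, Relb or Bcl3.

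Other genes of the pathway were read from lists of known regulators, receptors and targets. Among the other IkB proteins and negative regulators, 15 of 17 listed genes were measured and 4 rose with CD49f in CD25- cells, with a list median of 0.08. Of all genes, 7.5% were called higher there. Those of the list that rose were Zc3h12a, an RNase that degrades inflammatory transcripts (0.66 ± 0.09), Commd1 (0.47), Nfkbie, which codes IkB epsilon (0.44), and Tnip1, a partner of Tnfaip3 (0.20). With CD25 in CD49f- cells 4 rose, Zc3h12a (0.95), Nfkbie (0.87), Tnip1 (0.72) and N4bp1 (0.35), with a median of 0.21, where 8.78% of all genes were called higher. Zc3h12a also had a called interaction, of -0.74 ± 0.15 (adjusted p = 0.0033). Its mean of 6.48 in CD25-CD49f- cells was just below 6.50, so its differences may be understated.

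Of 12 measured among 14 IKK subunits and upstream kinases, 1 rose and 0 fell with CD49f in CD25- cells, where 12.4% of all genes were called in either direction. It was Map3k8 (1.37 ± 0.22, adjusted p = 0.000109), a kinase held in complex with the Nfkb1 precursor. Its mean of 5.2 in CD25-CD49f- cells was below 6.50, so its differences may be understated. With CD25 in CD49f- cells 3 rose and 2 fell, where 13.1% of all genes were called in either direction. Map3k8 rose by 2.08, Tank by 0.95 and Tab2 by 0.58, while Ikbkb, a catalytic IKK subunit, fell by 0.42 (adjusted p = 0.0203). The interaction of Map3k8 was -1.64 ± 0.36 (adjusted p = 0.00702).

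Of 18 measured antigen receptor and TRAF adaptors among 20 listed, 1 rose with CD49f in CD25- cells, Traf1 (0.72), an adaptor of tumour necrosis factor receptors. That count did not exceed the 7.5% of all genes called higher there. With CD25 in CD49f- cells 5 rose and 2 fell, where 13.1% of all genes were called in either direction. The rising genes included Traf1 (1.09), Birc2 (0.67), Birc3 (0.65) and Traf2 (0.52). With CD25 in CD49f+ cells Birc3 rose by 0.55 (adjusted p = 0.019) and Malt1, the paracaspase of the antigen receptor complex, fell by 0.73 (adjusted p = 0.0112). Calls in either direction there took in 5.02% of all genes.

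Of 17 measured receptors that signal to NF-kB among 18 listed, 6 rose and 1 fell with CD49f in CD25- cells, led by Icos (1.58), Tnfrsf4, which codes OX40 (1.51), Tnfrsf9 (1.16) and Il18r1 (0.75). With CD25 in CD49f- cells 9 rose and 2 fell, among them Tnfrsf4 (2.78), Tnfrsf9 (2.70), Il1r1 (2.10, from a mean of 5.38) and Tnfrsf18 (1.40). Among all genes, 12.4% and 13.1% were called in either direction in these comparisons, in that order. Unlike the members, 3 receptors fell with CD49f in CD25+ cells, where 1.66% of all genes were called. Il1r1, the interleukin-1 receptor, fell by 2.06 (adjusted p = 3.29e-09) to a mean of 5.42, below 6.50, Il18r1 by 0.60 and Tnfrsf25 by 0.46.

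Among 30 NF-kB target genes, all measured, 15 rose and 2 fell with CD49f in CD25- cells, with a median of 0.26. Cxcl10 (2.41), Gadd45b (1.54) and Il2ra (1.42) rose and Bcl2 fell by 1.11. Cxcl10 and Il2ra had means of 4.54 and 5.42 in CD25-CD49f- cells, so their differences may be understated. With CD25 in CD49f- cells 14 rose and 1 fell, including Il2ra (4.27), Cd83 (2.96), Gadd45b (2.0) and Lta (1.88), although Il2ra codes the protein used for the sort. Cd83 had a mean of 6.48 in CD25-CD49f- cells, just below 6.50, so its difference may be understated as well. With CD25 in CD49f+ cells 9 rose and 3 fell, and among those that fell were Il2 and Ier3, whose means were below 6.50 in every group. With CD49f in CD25+ cells 0 of the 30 were called by limma, and 5 had an unadjusted p under 0.05. The shares of all genes called in either direction in these comparisons were 12.4%, 13.1%, 5.02% and 1.66%, in that order. In the fit of 19 arrays 4 of the 30 fell with CD49f in CD25+ cells, 15 rose and 3 fell with CD49f in CD25- cells, and 16 rose and 1 fell with CD25 in CD49f- cells. There the shares of all genes were 2.63%, 17.4% and 17.5%. The lists share genes, such as Traf1, Birc3, Nfkbie and Tnip1, so their counts are not independent.

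**Figure D4:**
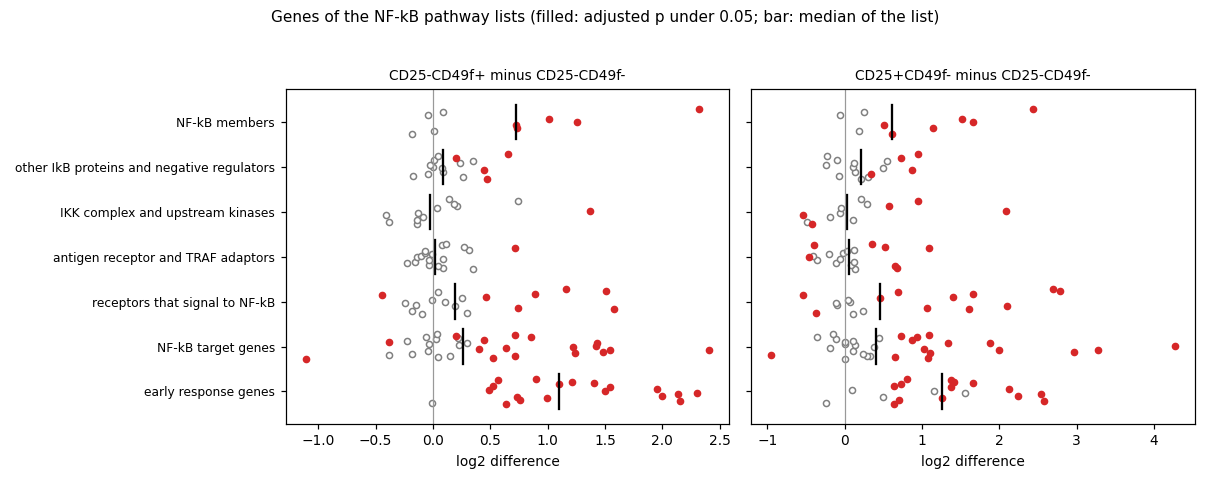
Log2 difference of every measured gene of the pathway lists in the comparisons shown, 1 row per list, with called genes filled and the list median as a bar. With CD49f in CD25- cells the NF-kB members have a median of 0.73 and the early response genes 1.10, while the IKK complex and upstream kinases have a median of -0.03.

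Early response genes, which many stimuli and the handling of cells induce, moved with the first pattern. Of 19 measured, 18 were higher with CD49f in CD25- cells (median 1.10) and 14 with CD25 in CD49f- cells (median 1.26), against 7.5% and 8.78% of all genes. Their mean level ran from 8.15 to 9.24 in CD25-CD49f- cells, from 9.68 to 10.1 in CD25-CD49f+ cells, from 9.66 to 10.08 in CD25+CD49f- cells and from 9.60 to 10.01 in CD25+CD49f+ cells. By limma 0 were called with CD49f in CD25+ cells (1.66% of all genes), where 0 had an unadjusted p under 0.05. The interaction was called lower for 11 (3.79% of all genes). Without the 4 arrays 18 were higher with CD49f in CD25- cells (9.51% of all genes) and 13 with CD25 in CD49f- cells (11.3%). Nr4a1, induced by the antigen receptor, was higher by 1.40 and Dusp1 by 2.15 with CD49f in CD25- cells. The part of this shift in the levels of Tnfaip3, Nfkbia, Rel, Nfkbiz and Nfkbid was not tested.

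Markers of other cells were read in the same way. Myeloid and dendritic cell markers, 11 of 12 measured, were lower for 6 and higher for 0 with CD49f in CD25- cells, lower for 5 and higher for 1 with CD25 in CD49f- cells, and lower for 2 and higher for 0 with CD49f in CD25+ cells. The last were Fcer1g (-1.98) and Adgre1 (-0.93), and Fcer1g was the 1 that was higher (0.92). Their mean level ran from 6.48 to 8.03 in CD25-CD49f- cells, from 6.38 to 7.01 in CD25-CD49f+ cells, from 6.29 to 6.78 in CD25+CD49f- cells and from 5.98 to 6.68 in CD25+CD49f+ cells. Itgax, which codes CD11c, had means of 8.58, 6.66, 6.16 and 6.22. B cell markers, 9 of 10 measured, were called for 0 with CD49f in CD25- cells by limma, with 2 at an unadjusted p under 0.05. Cd79a had group means of 5.11 to 5.27 and Pax5 of 5.08 to 5.32, below 6.50, while Cd22 had 7.64 to 8.31 and Ms4a1 6.43 to 7.20. Neutrophil markers, 7 of 8 measured, had mean levels of 7.32 to 8.33 in CD25-CD49f- cells, 7.85 to 8.52 in CD25-CD49f+ cells, 7.08 to 7.78 in CD25+CD49f- cells and 6.98 to 7.82 in CD25+CD49f+ cells. With CD25 in CD49f- cells 2 were lower and 0 higher, Mpo (-1.76) and Elane (-0.64). With CD25 in CD49f+ cells 1 was lower and 0 higher, Mpo (-1.46), where 5.02% of all genes were called in either direction. Without the 4 arrays 5 and 6 were lower in these comparisons and 0 higher, against 17.5% and 11% of all genes. NK cell markers, 7 of 8 measured, were higher for 2 and lower for 1 with CD49f in CD25- cells, among them Nkg7 (0.99) and Prf1 (-1.48), and higher for 3 and lower for 1 with CD25 in CD49f- cells, among them Eomes (1.28). Beside these marker counts, 12.4% of all genes were called in either direction with CD49f in CD25- cells and 13.1% with CD25 in CD49f- cells. With CD49f in CD25+ cells the share was 1.66%. In bulk RNA, fewer cells of a type and less RNA per cell cannot be told apart, and the part of other cells in the member levels was not tested. The Actb 3' minus 5' probe difference, which grows as RNA breaks down, was 1.28 to 2.70 in CD25-CD49f- cells, 1.22 to 1.5 in CD25-CD49f+ cells, 1.26 to 4.83 in CD25+CD49f- cells and 1.30 to 1.69 in CD25+CD49f+ cells, with replicate 5 at 4.83. With it as a covariate the Tnfaip3 interaction was -2.22 (adjusted p = 0.000429).

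Across the 23 arrays Rel, Nfkbia, Nfkbiz and Tnfaip3 levels correlated with one another, as a description with no test, since the arrays share the group differences and the 4 arrays that stood apart. Rel correlated with Nfkbiz at r = 0.963 and with Nfkbia at r = 0.938, and Nfkbia with Tnfaip3 at r = 0.896. On deviations from the group means these were 0.892, 0.721 and 0.627, and on the 19 remaining arrays 0.677, 0.665 and 0.650. Nfkbid shared this less within groups. Its deviations correlated with those of the other 4 at -0.493 to -0.104 over 23 arrays. Over 19 arrays they were all positive, at 0.0858 to 0.447, where the lowest pair among the other 4 gave 0.512. On levels, Bcl3 with Relb gave r = 0.591 over 23 arrays and 0.846 over 19, and Rel with Rela -0.323 and 0.554, so that this pair changed sign. On deviations from the group means, Bcl3 with Relb gave 0.545 and 0.568, and Rel with Rela -0.65 and 0.102.

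The genes most like each member over the 23 arrays, among genes with a group mean of at least 7, were named by Pearson correlation. For Tnfaip3 they were Phlda1 (r = 0.976), Rgs1 (r = 0.962) and Nr4a1 (r = 0.954), and these were 0.972, 0.961 and 0.971 without the 4 arrays. For Rel they were Nfkbiz, Mdfic (r = 0.946) and Zfp52 (r = 0.945), and for Nfkbia Fabp5 (r = 0.943), Rel and Rbbp7 (r = 0.922). For Nfkbiz they were Rel, Dnajb9 (r = 0.958) and Zfp52 (r = 0.953), and for Nfkbid Cibar1 (r = 0.918), Ing2 (r = 0.899) and Kctd17 (r = 0.894). For Bcl3 they were Zmiz2 (r = 0.926), Cad (r = 0.903) and Pbx2 (r = 0.901), which gave 0.931, 0.944 and 0.878 without the 4 arrays. The nearest genes to Nfkb2 and Rela, Tmem259 (r = 0.906) and Atp5g2 (r = 0.922), gave 0.749 and 0.739 without them, and the nearest to Relb, Ephb6 (r = 0.857), gave 0.748.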

How the data were processed

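The authors deposited log2 expression values of 45101 probe sets on 23 arrays, made with RMA per the submitters' processing notes, version not given in the sources used here. They were used without rescaling. After 64 control probe sets were left out, 45037 remained. A linear model of the 4 group means was fitted to each in limma 3.58.1 (R 4.3.3; lmFit, contrasts and eBayes), with Benjamini-Hochberg adjustment over all of them. The array annotation gave 1 gene for 34945 probe sets, several for 932 and none for 9160. A gene was read at its single-gene probe set with the highest mean, which gave 18193 genes, and all member probe sets were also reported. The fit was tested on simulated data. The members, lists and rule for naming genes (all members; up to 4 called genes per list with the smallest p) were chosen with earlier results of these data known. Alternatives left out 1 array at a time, added a replicate block or array weights, rescaled the arrays, chose probe sets otherwise, used a stricter threshold or only the groups compared, or split the arrays by Y-linked transcripts (log2 level above 6 for Eif2s3y; above 8 for Xist). Fits without 4 arrays, or with the Actb difference as a covariate, were added after seeing the data. Over all groups, same-numbered samples did not generally deviate together (29 pairs, r from -0.455 to 0.52, 12 over 0.1). Numbers were not used as pairs. Replicates 1 to 4 of the CD25+ groups did match in Y-linked transcripts. Their Tnfaip3 levels, though not those of every member, ran in the same order. Whether those samples were paired is not stated, and their comparison by CD49f was unpaired. Figures used Python 3.11.15 and matplotlib 3.10.9.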

Additional observations from a re-analysis of the deposited data

Results flagged for a closer look

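In a group of 4 to 10 arrays, a level was taken as standing apart when its gap to the nearest other exceeded Dixon's critical value, which chance passes in about 1 of 20 groups; 11 of 68 probe set and group pairs did so. CD25-CD49f- replicate 7, 1 of the 4 arrays that correlated less with their group, gave 6 of them. It was highest of its group for both Nfkb2 probe sets (9.48, nearest 7.94; and 7.64, nearest 7.12), for Rela (10.37, nearest 9.72) and for Bcl3 (9.18, nearest 8.08). It was lowest for 1 Nfkbia probe set (10.41, nearest 11.54) and 1 Nfkbiz probe set (7.98, nearest 9.10). CD25+CD49f- replicate 5, the array with the Actb difference of 4.83, was lowest for Rela (9.18, nearest 9.65) and Relb (6.42, nearest 7.45). CD25-CD49f+ replicate 1 was highest for the brighter Nfkb2 probe set (8.82, nearest 7.87). The other 2 were CD25-CD49f+ replicate 4, lowest for 1 Nfkbia probe set (11.39, nearest 11.63), and CD25+CD49f+ replicate 2, lowest for 1 Nfkbiz probe set (8.87, nearest 9.82).

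The CD49f difference was smaller in CD25+ than in CD25- cells for Tnfaip3 (-2.24), Rel (-1.11) and Nfkbia (-0.82), by the limma interaction term.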

How the results depend on the processing

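No member difference changed direction while called under any alternative that was run. With CD49f in CD25- cells 5 genes were called in each of the 23 fits without 1 array (5 to 5). The count was 3 on arrays without Y-linked transcripts (6.29% of all genes called in either direction). On arrays with them it was 2 (4.49%), while 12.4% of all genes were called on all arrays. With CD49f in CD25+ cells the fits without 1 array called 0 to 0, and with CD25 in CD49f- cells 5 to 6. With CD25 in CD49f+ cells they called 0 to 1, against 0 on all arrays (5.02% of all genes called in either direction). The count was 2 with array weights (12.8% of all genes), 1 with only the groups compared (7.04%) and 3 without the 4 arrays (11%). The interaction count, 3 on all arrays, ran from 1 to 4 without 1 array, falling to 1 without CD25-CD49f+ replicate 2, 5 or 7, CD25+CD49f- replicate 1 or CD25+CD49f+ replicate 2, 3 or 4. On all arrays the interaction was called in either direction for 4.55% of all genes. The member count was 5 with array weights (9.53% of all genes) and 5 without the 4 arrays (8.03%). It was 1 at an adjusted p under 0.01 (2.96%), 0 on arrays without Y-linked transcripts (1.56%) and 1 on arrays with them (1.11%). The replicate block kept 5 and 6 calls with CD49f in CD25- cells and CD25 in CD49f- cells (12.2% and 11.7% of all genes). It gave 2 interaction calls (4.76%), with Nfkbia at -0.82 (adjusted p = 0.0699). Over all groups 4 arrays correlated best with a same-numbered array, so pairing across all groups is not borne out. The cause was not tested. No scaling moved the median of all genes by over 0.1. Levels near 6.50 or below are not told from absent transcripts, a limit read from 1 probe set, which others need not share. In CD25-CD49f- cells it limits Rel, the dimmer Tnfaip3 and the dimmest Nfkbia probe sets. Among the list genes named, it limits Map3k8, Cxcl10, Il2ra, Il1r1, Zc3h12a and Cd83 there. Only 4 CD25+CD49f+ arrays limit the comparison within CD25+ cells.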
